A study of Homo sapiens with 4 samples.

Results

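Immediate early genes and mitogen-activated protein kinase (MAPK) phosphatases were followed across cultured human lung adenocarcinoma cells in which PSAT1, an enzyme of serine synthesis, had been added or silenced. The members were EGR1, FOS, FOSB, FOSL1, JUN, JUNB, IER2, IER3, DUSP1 and DUSP6. They were taken by name, as every probe set whose single annotated gene symbol is one of them, which gave 19 probe sets for the 10 genes among 19740 genes named on the array. The members and the gene lists read beside them were chosen with earlier results of these data known. Shares over all genes are set beside them as a description. The cells were CL1-0 with a control vector, CL1-0 with a PSAT1 vector, CL1-5 with a non-silencing hairpin vector and CL1-5 with a PSAT1 hairpin vector, and each of these 4 groups had 1 array and no replicate. CL1-5 is an invasive subline of CL1-0. All 4 cultures were stably transduced and held under puromycin for 2 weeks, per the labels, and the labels do not say whether they were clones or pools.

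Immediate early genes are transcribed within minutes of a growth factor, serum or stress signal, without new protein synthesis, and their messages are short-lived. The signal reaches them mainly through the RAS, RAF, MEK and ERK kinases and through the stress kinases JNK and p38, which act on promoter-bound serum response factor, ternary complex factors and CREB. Their products include transcription factors, such as EGR1 and the FOS and JUN proteins that pair into AP-1, and the dual-specificity phosphatases that switch the kinases off again. In lung adenocarcinoma this pathway is often driven by receptor tyrosine kinases and by RAS itself.

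EGR1, FOS, JUN and JUNB had log2 ratios of -0.90 or lower with PSAT1 in CL1-0, and DUSP1 and DUSP6 are the phosphatase members, so the 250 bases before the annotated start of these 6 genes are shown, from RefSeq on build GRCh38.p14. The windows of FOSB and IER2, which were near level there as well, were searched and are not shown. Capitals mark letters that match any of the motifs searched on both strands.
EGR1, chr5:138465229-138465478, plus strand: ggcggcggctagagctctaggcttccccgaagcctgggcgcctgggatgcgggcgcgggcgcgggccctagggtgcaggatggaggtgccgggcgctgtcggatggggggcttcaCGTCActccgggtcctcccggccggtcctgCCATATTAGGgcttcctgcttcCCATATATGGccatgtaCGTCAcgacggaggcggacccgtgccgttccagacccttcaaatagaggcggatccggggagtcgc
FOS, chr14:75278578-75278827, plus strand: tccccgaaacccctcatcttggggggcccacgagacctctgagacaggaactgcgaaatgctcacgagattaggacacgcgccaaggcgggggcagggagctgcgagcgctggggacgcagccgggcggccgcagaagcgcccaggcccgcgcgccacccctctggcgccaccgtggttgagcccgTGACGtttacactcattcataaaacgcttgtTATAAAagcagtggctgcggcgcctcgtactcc
JUN, chr1:58784048-58784297, minus strand: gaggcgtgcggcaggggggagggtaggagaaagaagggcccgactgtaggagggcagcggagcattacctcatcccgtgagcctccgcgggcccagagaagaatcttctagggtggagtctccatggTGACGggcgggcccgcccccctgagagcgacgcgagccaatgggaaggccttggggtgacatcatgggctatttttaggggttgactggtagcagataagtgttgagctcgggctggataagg
JUNB, chr19:12791236-12791485, plus strand: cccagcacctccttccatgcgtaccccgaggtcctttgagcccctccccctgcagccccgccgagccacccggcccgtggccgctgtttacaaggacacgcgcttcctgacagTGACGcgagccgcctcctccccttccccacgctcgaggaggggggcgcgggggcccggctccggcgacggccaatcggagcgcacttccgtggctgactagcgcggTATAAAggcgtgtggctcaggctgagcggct
DUSP1, chr5:172771196-172771445, minus strand: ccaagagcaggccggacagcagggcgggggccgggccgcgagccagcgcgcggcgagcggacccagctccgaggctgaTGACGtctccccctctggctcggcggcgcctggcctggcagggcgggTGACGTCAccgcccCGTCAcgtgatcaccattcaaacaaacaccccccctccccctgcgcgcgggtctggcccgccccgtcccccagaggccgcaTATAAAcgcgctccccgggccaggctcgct
DUSP6, chr12:89352502-89352751, minus strand: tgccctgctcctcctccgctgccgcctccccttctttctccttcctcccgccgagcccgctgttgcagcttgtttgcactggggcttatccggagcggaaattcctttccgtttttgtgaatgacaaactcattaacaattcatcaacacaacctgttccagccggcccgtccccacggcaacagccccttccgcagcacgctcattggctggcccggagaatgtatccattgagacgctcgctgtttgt
The EGR1 window held 2 CArG boxes, the binding sequence of serum response factor, where 1.16% of all 35116 windows of this length hold one or more. The cyclic AMP response element TGACGTCA occurred once in the DUSP1 window and in 1.65% of all windows, and its core TGACG, which the full element contains, occurred in 7 of the 8 member windows found and in 21.2% of all windows. The TATA box TATAAA occurred in the windows of FOS, FOSB, JUNB and DUSP1 and in 10.7% of all windows. The AP-1 site TGACTCA or TGAGTCA, the EGR site GCGTGGGCG or GCGGGGGCG and the ETS site CCGGAAGT occurred in none of the 8 windows and in 4.20%, 5.37% and 3.42% of all windows. None of the letters searched occurred in the DUSP6 window. A match describes these letters and shows no binding.

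Values are linear MAS5 signals. A signal under 49.0, the pooled median once control probe sets were removed, was set to that floor before log2 ratios were taken, and a gene with 1 array at the floor has a bound, written "at least". A gene with several probe sets is represented by the brightest. "Fell" and "rose" mean 2-fold or more between 2 arrays, which is a rule of size with no test, since 1 array per group allows none. Where a gene had several probe sets, their log2 ratios had a pooled SD of 0.30 with PSAT1 against vector, 0.18 with the PSAT1 hairpin against the non-silencing one and 0.59 between the control arrays. This spread holds no variation between cultures. Between 48.0% and 52.0% of probe sets lay above the floor on an array, and the 3' signal of ACTB over its 5' signal, which reports on RNA integrity, ran from 1.18 to 1.22 in CL1-0 and from 1.34 to 1.38 in CL1-5. PSAT1 itself read 4214 with vector and 5494 with PSAT1 in CL1-0, and 1760 with the non-silencing and 143 with the PSAT1 hairpin in CL1-5. The CL1-0 difference was 1.30-fold (0.38), under the 2-fold rule, and 2219 of 13187 measured genes had a higher ratio. In CL1-5 PSAT1 fell 12.3-fold (-3.62), and 0 of 12821 measured genes had a lower ratio. The words "with PSAT1" thus name the construct by its label. The labels call the cells alveolar type II, and 6 of 8 such markers with a probe set were above the floor on every array at signals between 62.3 and 268, while the surfactant protein gene SFTPD and SLC34A2 were below it on all 4. The 4 immune markers with a probe set were also below it on all arrays. The fibroblast markers COL1A1 (221 to 288) and THY1 (60.2 to 85.3) and the endothelial marker PECAM1 (54.3 to 150) were above it on all. The fibroblast markers COL1A2, PDGFRA, LUM and DCN and the endothelial CDH5 and KDR were below it on all. Signals of the size seen for the alveolar markers thus do not set the cell types apart. Of 6 epithelial markers, EPCAM, CDH1 and KRT19 were below it on all 4 arrays, while the keratins KRT8 (77.8, 60.4, 1271 and 1675 in the order of the groups), KRT18 (757, 635, 5308 and 5657) and KRT7 (54.0 to 94.5) were above it on all. The 3 keratins had negative ratios in the CL1-0 pair, between -0.38 and -0.25, and their part in the member values was not tested. In the CL1-0 pair the fibroblast collagen COL3A1 read 312 with vector and 27.4 with PSAT1, and 4 of 4 measured fibroblast markers had negative ratios there, the part of which in the member values was not tested.

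**Figure D1:**
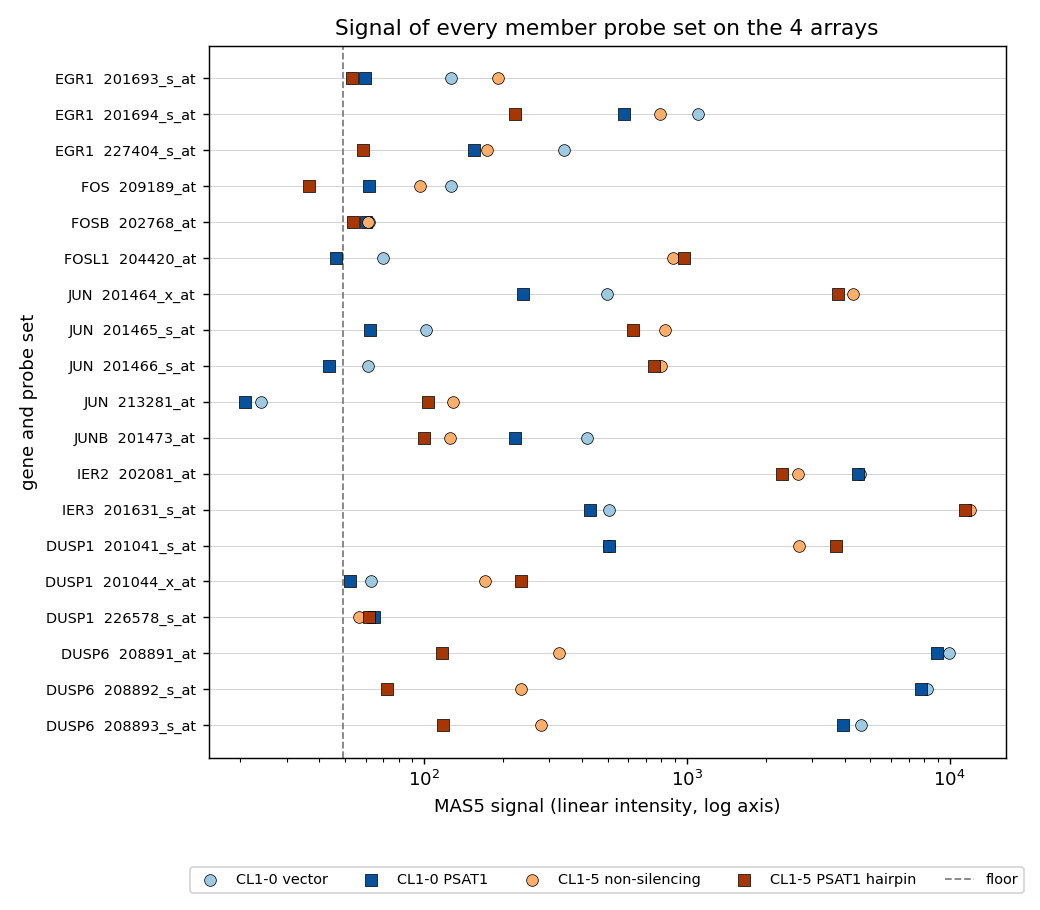
MAS5 signal on a log axis for each of the 19 member probe sets, named by gene and probe set, with 1 point per array and the floor of 49.0 as a dashed line. The CL1-5 arrays lie to the right of the CL1-0 arrays for FOSL1, JUN and IER3 and far to the left for DUSP6, while all 3 EGR1 probe sets are lowest on the CL1-5 hairpin array.

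EGR1, a zinc finger transcription factor and a classic ERK target, was lower on the manipulated array of both lines. In its brightest probe set, 201694_s_at, it read 1104 with vector and 579 with PSAT1 in CL1-0, and 791 with the non-silencing and 222 with the PSAT1 hairpin in CL1-5. The hairpin array was the lowest of the 4 and the vector array of CL1-0 the highest. In CL1-5 EGR1 fell 3.57-fold (log2 ratio -1.84), and 7 of 12821 measured genes had a lower ratio. In CL1-0 the difference was 1.91-fold (-0.93), just under the 2-fold rule, and 156 of 13187 genes had a lower ratio.

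The dimmer EGR1 probe sets went the same way. Probe set 201693_s_at read 127 and 59.6 in CL1-0 and 192 and 53.4 in CL1-5, the control first, ratios of -1.09 and -1.85. Probe set 227404_s_at read 341 and 156, then 174 and 58.5, ratios of -1.13 and -1.57. The 3 EGR1 ratios had an SD of 0.11 in CL1-0 and 0.16 in CL1-5, so the probe sets differed from each other far less than the arrays did. In CL1-0 both dimmer probe sets passed 2-fold (2.12 and 2.19) while the brightest did not. Probe set 201693_s_at on both manipulated arrays (59.6 and 53.4) and 227404_s_at on the hairpin array (58.5) lay close to the floor of 49.0. This limits those ratios.

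FOS, the founding AP-1 partner, was dim throughout. As deposited, its 4 arrays had the same order as in the brightest EGR1 probe set, an order that EGR1 probe set 201693_s_at did not share. Its 1 probe set read 127 with vector and 61.7 with PSAT1 in CL1-0, a 2.05-fold fall (-1.04). In CL1-5 it read 96.6 with the non-silencing hairpin and 36.6 with the PSAT1 hairpin. The last value is under the floor, so the CL1-5 difference is at least 1.97-fold (-0.98). It came to -1.20 under quantile normalization, -1.27 under median centring and -1.40 with the floor at the 25th percentile. A floor raised to the 65th percentile gave -0.32 in CL1-0, so the FOS values lie close to the range where these arrays give no level.

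FOSB, which can replace FOS in AP-1, stayed between 53.6 and 61.7 on the 4 arrays, just above the floor. Its ratios of -0.03 in CL1-0 and -0.19 in CL1-5 were within the spread between probe sets in CL1-0 and about at it in CL1-5.

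FOSL1 (FRA1), the FOS family member tied to invasive growth, was dim in CL1-0 and bright in CL1-5. It read 69.8 with vector and 46.4 with PSAT1 in CL1-0, and in CL1-5 884 with the non-silencing and 979.7 with the PSAT1 hairpin. Both CL1-5 arrays lay far above both CL1-0 arrays. The control arrays of the lines differed 12.7-fold (3.66), the CL1-5 pair 1.11-fold (0.15) and the CL1-0 pair at least 1.42-fold (-0.51). Under median centring the CL1-0 ratio was -0.18.

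JUN, the main AP-1 partner of the FOS proteins, was lower with PSAT1 in CL1-0 and about level in CL1-5. Its brightest probe set, 201464_x_at, read 498 with vector and 238 with PSAT1, a 2.10-fold fall (-1.07), and in CL1-5 4281 with the non-silencing and 3769 with the PSAT1 hairpin (-0.18). The x in its identifier marks probes that can match several transcripts. Probe set 201465_s_at read 102 and 62.1 in CL1-0 and 824 and 626 in CL1-5, ratios of -0.71 and -0.40. Probe set 201466_s_at read 61.1 and 43.6, then 794 and 749, ratios of -0.32, a bound, and -0.09.

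The fourth JUN probe set, 213281_at, read 24.1 and 20.8 in CL1-0, both under the floor, and 129 and 103 in CL1-5 (-0.32). All 3 JUN probe sets measured in CL1-0 had negative ratios, but only the brightest passed 2-fold, and the mean over probe sets gave -0.52. The size of the JUN difference in CL1-0 thus depends on the probe set, with an SD of 0.38 between the 3 ratios.

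JUNB, which restrains JUN activity in many settings, was lower with PSAT1 in CL1-0 as well. It read 416 with vector and 223 with PSAT1 (1.87-fold, -0.90), and 125 and 100.4 in CL1-5 (-0.32). Unlike JUN, it was lower on both CL1-5 arrays than on either CL1-0 array. Median centring left its CL1-0 ratio under 2-fold too, as did the other alternatives (lowest -0.97).

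IER2, a small nuclear protein of the early response, hardly moved within the lines. It read 4556 and 4486 in CL1-0 (-0.02) and 2652 and 2300.3 in CL1-5 (-0.21). The sign in CL1-0 turned under other settings, with ratios from -0.09 to 0.03.

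IER3, a stress-induced regulator of cell survival, read 504 with vector and 429 with PSAT1 in CL1-0 (-0.23) and 11909 and 11438 in CL1-5 (-0.06). Both CL1-5 arrays read far above both CL1-0 arrays, and the control arrays differed 23.6-fold (4.56).

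DUSP1, a nuclear phosphatase that acts on p38, JNK and ERK, was the 1 phosphatase member higher with the PSAT1 hairpin. Its brightest probe set, 201041_s_at, read 508 and 505 in CL1-0 (-0.01), and 2668 with the non-silencing against 3689 with the PSAT1 hairpin in CL1-5 (1.38-fold, 0.47). Probe set 201044_x_at gave a like ratio in CL1-5, with 170 and 234 (0.46), and read 62.9 and 52.2 in CL1-0 (-0.27). Probe set 226578_s_at stayed between 56.8 and 64.6 on all 4 arrays. The CL1-5 difference stayed under 2-fold, yet 369 of 12821 measured genes had a higher ratio.

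DUSP6, a cytoplasmic phosphatase specific for ERK and itself a product of ERK signalling, fell in CL1-5 with the PSAT1 hairpin on all 3 probe sets. Its brightest probe set, 208891_at, read 326 with the non-silencing and 117 with the PSAT1 hairpin, a 2.78-fold fall (-1.48), and 17 of 12821 measured genes had a lower ratio. Probe set 208892_s_at read 235 and 72.1 (3.25-fold, -1.70), and 208893_s_at read 278 and 118 (2.35-fold, -1.23). These differences exceed the SD of 0.24 between the 3 ratios.

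In CL1-0, DUSP6 was bright and near level. The same probe sets read 9979 with vector and 8923 with PSAT1 (-0.16), 8177 and 7812 (-0.07), and 4589 and 3929 (-0.22). The DUSP6 ratio of the CL1-5 pair minus that of the CL1-0 pair was -1.32, the largest such gap in size among the 10 members, and this difference was not tested.

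**Figure D2:**
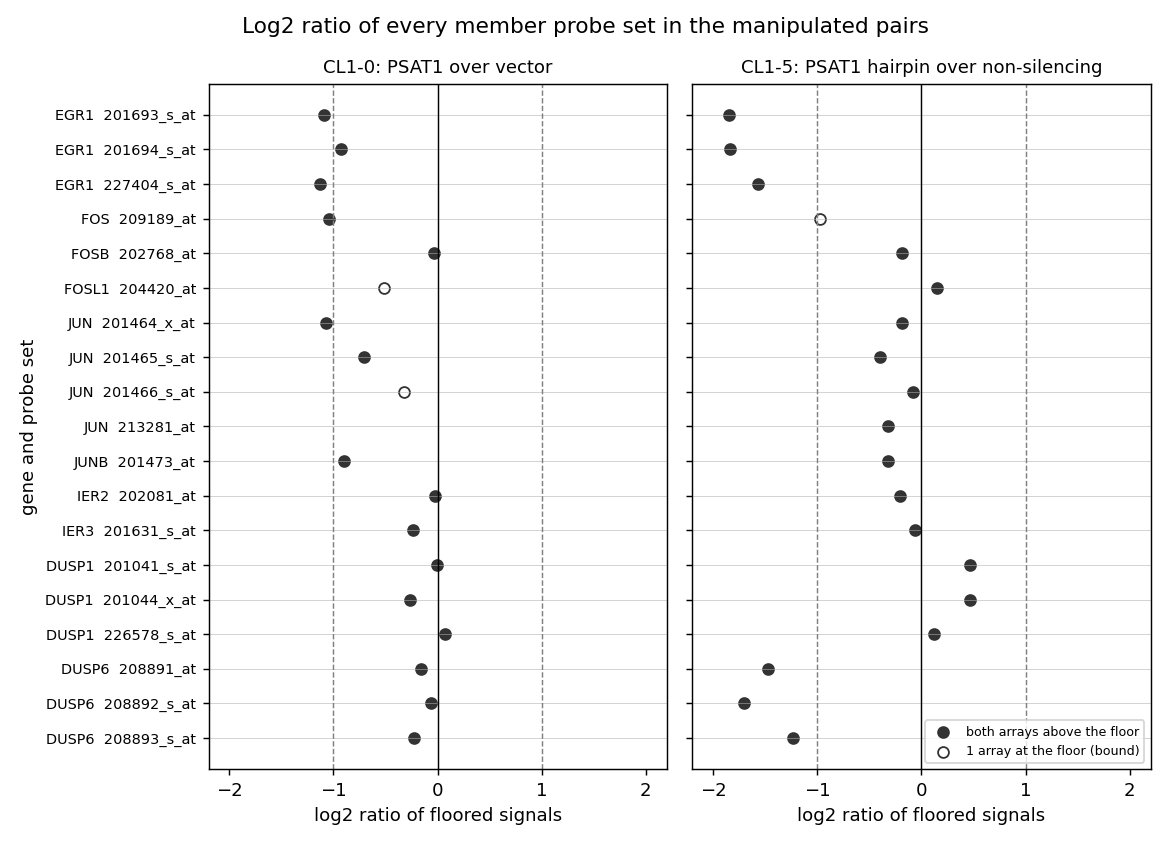
Log2 ratio of floored signals for each member probe set, with PSAT1 over vector in CL1-0 on the left and PSAT1 hairpin over non-silencing in CL1-5 on the right; filled points have both arrays above the floor, open points are bounds, dashed lines mark 2-fold, and JUN 213281_at has no point in CL1-0. The 3 EGR1 probe sets are negative in both panels, those of JUN are further from 0 on the left for the brightest, and those of DUSP6 are past 2-fold on the right alone.

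Over the 10 members, 2 fell with PSAT1 in CL1-0, FOS and JUN, and 0 rose, where 1.01% of the 13187 genes measured in that pair fell and 2.56% rose. All 10 ratios were negative, with a median of -0.37, beside -0.01 over all measured genes, of which 51.6% were negative. Those of DUSP1 (-0.01), IER2 (-0.02) and FOSB (-0.03) were near 0 beside the SD of 0.30 between probe sets, so their signs are not settled. IER2 came to 0.03 under quantile normalization. The members split by size into EGR1, FOS, JUN and JUNB at -0.90 or lower, FOSL1 at -0.51 or lower as a bound, and FOSB, IER2, IER3, DUSP1 and DUSP6 between -0.23 and -0.01. Median centring added EGR1 to the falls, and the mean over probe sets put EGR1 (-1.05) in the place of JUN. At 1.5-fold, 4 members were lower, beside 4.06% of all measured genes.

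In CL1-5, 2 members fell with the PSAT1 hairpin, EGR1 and DUSP6, and 0 rose, where 0.421% of 12821 measured genes fell and 0.398% rose. FOS lay at its bound just under 2-fold and also counted as a fall under quantile normalization, median centring and the 25th percentile floor. The ratios were negative for 8 of 10 members, with FOSL1 and DUSP1 the exceptions, and had a median of -0.20, beside 0.02 over all measured genes, of which 46.3% were negative. FOSB, JUN, JUNB, IER2 and IER3 lay between -0.32 and -0.06.

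The pairs share no array, and by their labels one construct adds PSAT1 and the other silences it. Negative ratios in both pairs were found for 8 of 10 members, beside 20.9% of the 11941 genes measured in both. Of the 8, FOSB (-0.03) and IER2 (-0.02) were near 0 in CL1-0. Since the members were chosen with earlier results of these data known, the contrast is a description and no test. EGR1 and FOS, the latter by a bound in CL1-5, were the members at -0.90 or lower in both, and 6 of the 11941 genes reached that. This mark is not the 2-fold rule and lies close to the members' own values, so the count does not measure how rare they are. None of the 10 members passed 2-fold in both pairs, and 2 of the 11941 genes did, EFNA5 and NFKBIZ.

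**Figure D3:**
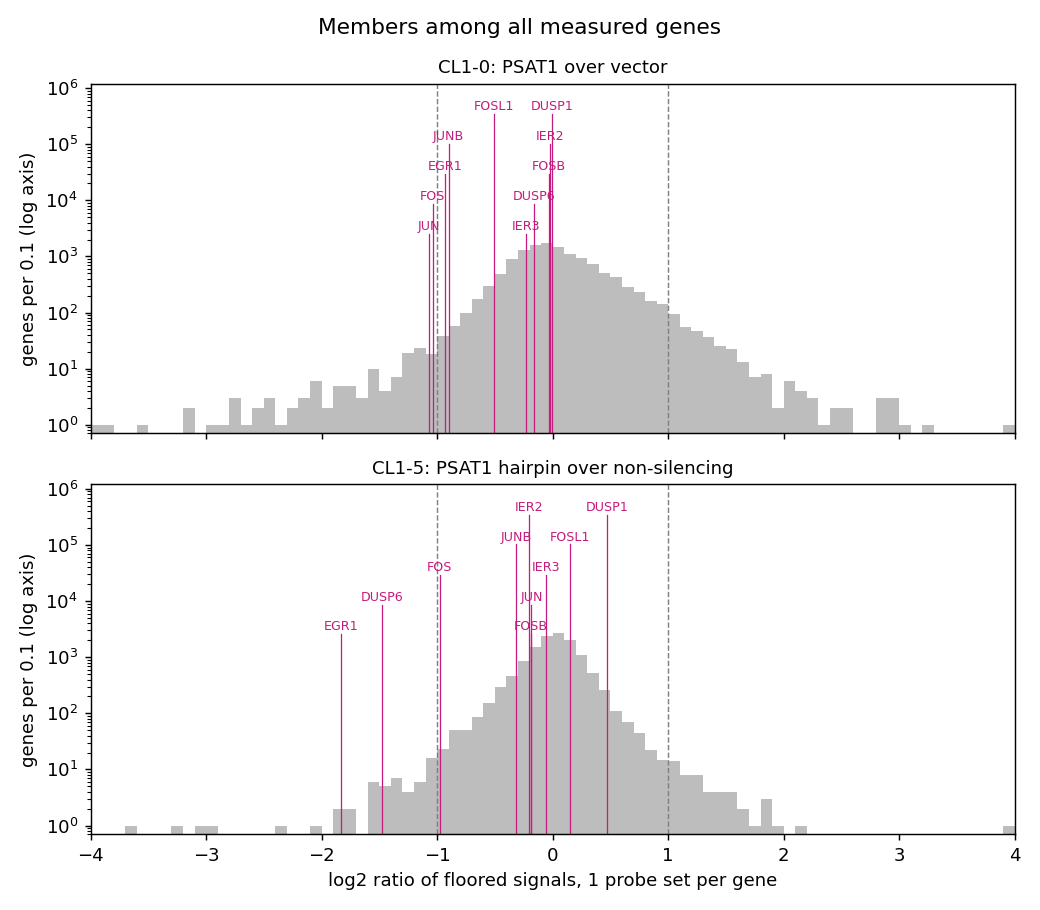
Histograms of log2 ratios over all measured genes (counts on a log axis, bins of 0.1), CL1-0 above and CL1-5 below, with the 10 members drawn as labelled lines and 2-fold dashed; the axis stops at 4 in either direction, past which 11 genes of the CL1-0 pair lie and 0 of the CL1-5 pair. In CL1-0 the lines of JUN, FOS, EGR1 and JUNB stand together near -1, and in CL1-5 those of EGR1, DUSP6 and FOS stand apart at -1.84, -1.48 and -0.98.

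The other genes of the pathway were read from lists of named genes. Of 16 other immediate early genes, 13 were measured in the CL1-0 pair, with 1 fall and 0 rises and a median of -0.22. The fall was the nuclear receptor NR4A2, which read 233 with vector and 68.6 with PSAT1 (3.40-fold). Its probe set is one whose probes can match several transcripts. Once such probe sets were left out NR4A2 had no measured value, and no other gene of the list fell. The NR4A2 ratio was -1.77 as deposited, -1.62 with the mean over probe sets and -1.20 with the floor at the 65th percentile. In the CL1-5 pair 11 were measured, with no 2-fold difference and a median of 0.07, and MAFF, a small MAF transcription factor, had the largest ratio (1764 and 1279, -0.46). Ratios were negative for 10 of 13 in CL1-0, beside 51.6% of all measured genes, and for 4 of 11 in CL1-5, beside 46.3%, and the difference between the pairs was not tested.

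Genes that report ERK output and feed back on it include the Sprouty and SPRED inhibitors and ETS factors. Of the 12 listed, 11 were measured in each pair, and none reached 2-fold. In CL1-5, 10 of 11 ratios were negative, EPHA4 (at least 0.13) being the exception, beside 46.3% of all measured genes. Those of CCND1 (-0.07), SPRED3 (-0.06) and EPHA2 (-0.09) were near 0 beside the SD of 0.18 between probe sets, so their signs are not settled. EPHA4 was under the floor with the non-silencing hairpin and read 53.6 with the PSAT1 hairpin. The median of the 11 ratios was -0.25, and -0.12 with the mean over probe sets. SPRY4, a Sprouty inhibitor of receptor signalling to ERK, read 407 with the non-silencing and 258 with the PSAT1 hairpin (-0.66). In CL1-0, 4 of 11 were negative, beside 51.6% of all, with a median of 0.12, and the ETS factor ETV1 had the largest ratio (885 and 499, -0.83).

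The 9 other MAPK phosphatases were all measured and had no 2-fold difference in either pair, with medians of 0.16 in CL1-0 and 0.07 in CL1-5. DUSP10, which acts on JNK and p38, had the largest ratios of opposite sign, 110.3 and 156 in CL1-0 (0.50) and 189 and 138 in CL1-5 (-0.45).

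The genes of the RAS and MAPK cascade (GTPases, adaptors, exchange factors and kinases), of which 15 of 23 were analysed here, had no 2-fold difference in either pair and medians of -0.04 and -0.05. The largest ratios were those of MAP2K6, a kinase of p38, in CL1-0 (0.69) and the RAS exchange factor SOS1 in CL1-5 (-0.50). With the mean over probe sets these 2 ratios were 0.35 and -0.05. Among 10 upstream factors and corepressors the medians were -0.01 and -0.16. NAB1, a corepressor that binds EGR proteins, fell 2.87-fold in CL1-0 (369 and 129, -1.52), but its ratio was -0.52 with the mean over probe sets. ELK4, a ternary complex factor, had the largest ratio in CL1-5 (-0.28, and -0.07 with the mean over probe sets). SRF, the serum response factor, named after its values were seen, read 510 and 506 in CL1-0 and 382 and 387 in CL1-5.

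Proteins that bind AU-rich elements, which mark short-lived early messages, and TNFAIP3, listed with them, had no 2-fold difference among 7 measured genes in either pair. Their medians were -0.07 in CL1-0 and 0.16 in CL1-5, where 1 of 7 ratios was negative, beside 46.3% of all measured genes. With the mean over probe sets the medians were -0.23 and 0.02. TNFAIP3, a feedback inhibitor of NF-kB, had the largest ratio in both, -0.90 in CL1-0 (244 and 131) and 0.47 in CL1-5 (435 and 602).

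**Figure D4:**
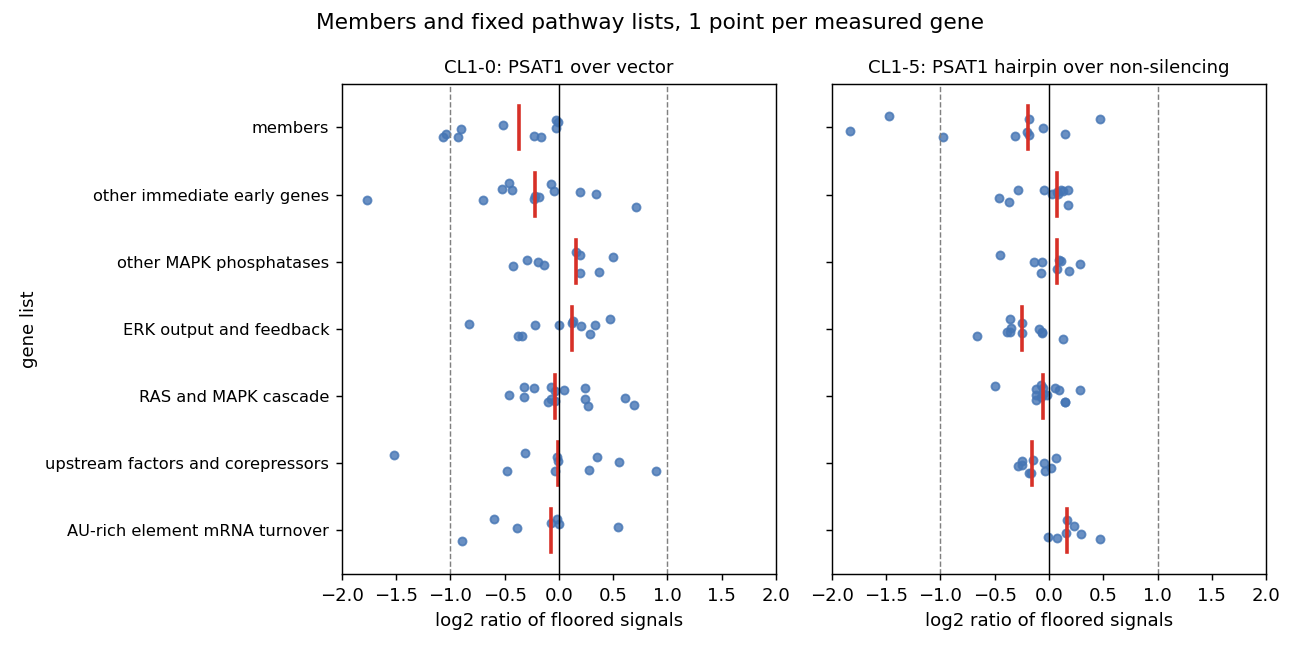
Log2 ratios of floored signals for the members and 6 pathway lists, 1 point per measured gene with a red bar at the list median and 2-fold dashed, CL1-0 left and CL1-5 right; vertical offsets within a list carry no value. In CL1-5, 10 of 11 ERK output genes lie left of 0, of which CCND1, SPRED3 and EPHA2 lie close to it. The median of that list is -0.25, while the other immediate early genes centre on 0.07.

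The control arrays of the lines were set side by side to show the level from which each pair started. They share an array with each pair, and they differ in control construct as well as in line, which cannot be told apart. The median of all 13720 measured genes was -0.49 as deposited, 0.00 under quantile normalization and 0.09 under median centring, so signals of CL1-5 are low as a whole on the deposited scale. Of all measured genes, 5.25% were 2-fold higher in CL1-5 and 24.8% lower as deposited, and 9.54% and 8.91% under quantile normalization.

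Of the 10 members, 4 were 2-fold higher in CL1-5 and 2 lower. FOSL1, JUN, IER3 and DUSP1 were higher in CL1-5 by 12.7-fold, 8.59-fold, 23.6-fold and 5.26-fold, and JUNB and DUSP6 lower by 3.32-fold and 30.6-fold. These 6 directions held under both other scalings, where JUNB came to -1.19 and -1.12. The 3 DUSP6 probe sets gave 30.6-fold, 34.9-fold and 16.5-fold. The JUN probe sets gave 8.59-fold, 8.12-fold, 13.0-fold and, for the dimmest, at least 2.63-fold. DUSP1 probe sets disagreed, with 2.71-fold for 201044_x_at and a ratio of -0.12 for 226578_s_at.

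EGR1, FOS, FOSB and IER2 stayed under 2-fold between the lines. Their ratios were -0.48, -0.39, -0.01 and -0.78 as deposited, and EGR1 and FOSB turned to 0.24 and 0.25 under quantile normalization. FOS turned to 0.22 under median centring. The EGR1 probe sets also disagreed in sign, at 0.60, -0.48 and -0.97, so no order of the lines can be given for it.

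Of the other immediate early genes, 5 of 13 measured were higher in CL1-5 and 6 lower, beside the 5.25% and 24.8% of all measured genes. The lower count was 2 with the mean over probe sets and 2 without multi-transcript probe sets. The largest differences were those of PHLDA1 (33.5-fold), the kinase SGK1 (13.9-fold) and the EGFR ligand HBEGF (9.04-fold) above and the stress factor ATF3 (6.21-fold) below. Among the other phosphatases DUSP5, a nuclear ERK phosphatase, was 22.3-fold and DUSP4 6.16-fold higher, while DUSP16 was 4.24-fold and DUSP7 2.85-fold lower. The ERK output genes ETV1, SPRY1 and SPRED1 were 9.90-fold, at least 6.67-fold and 4.43-fold lower, with none higher. In the cascade SOS1 was 5.20-fold and MAP2K6 at least 2.04-fold lower. Among upstream factors the corepressor NAB2 was 4.43-fold and ELK4 2.43-fold lower and ELK3 2.25-fold higher, and among the AU-rich element proteins ZFP36L2 was 4.77-fold and KHSRP 2.39-fold lower. Under quantile normalization and median centring DUSP7, MAP2K6, ELK4 and KHSRP were under 2-fold, and the other named genes kept their direction at 2-fold or more. With the mean over probe sets DUSP7, SOS1, MAP2K6, ELK3, ELK4 and KHSRP were under 2-fold, which left 0 of the cascade genes lower.

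**Figure D5:**
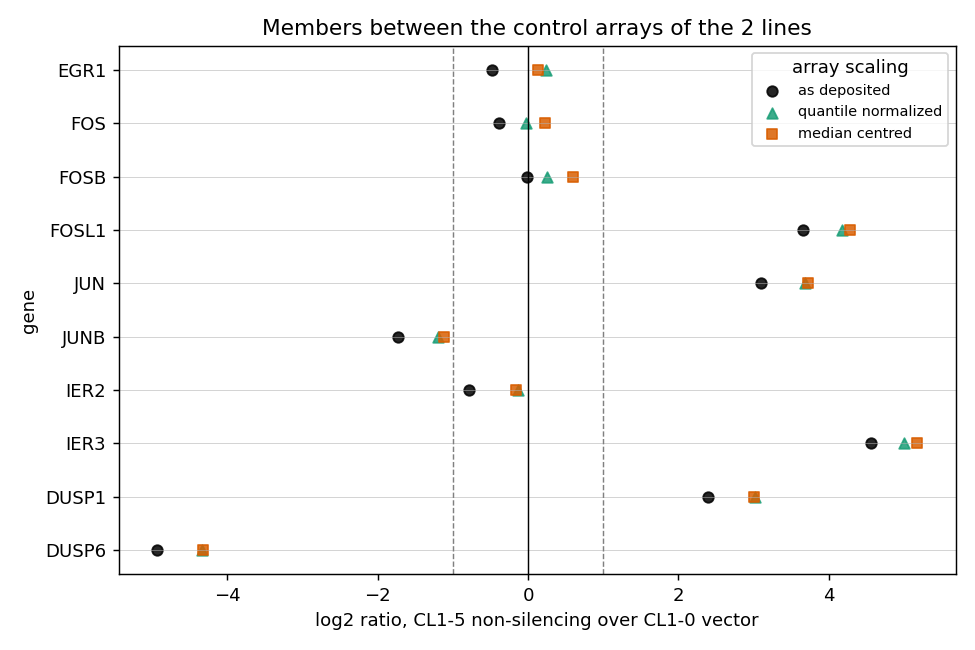
Log2 ratio of CL1-5 non-silencing over CL1-0 vector for each member, 1 probe set per gene, with the arrays as deposited (circles), quantile normalized (triangles) and median centred (squares) and 2-fold dashed. IER3, FOSL1, JUN and DUSP1 lie right of 2-fold and DUSP6 and JUNB left of it in all 3, while EGR1 crosses 0.

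Genes with patterns most like EGR1 and DUSP6 were sought by the Euclidean distance between log2 signals centred on each gene's mean over the 4 arrays, among genes above the floor on all arrays and reaching 212.6, the 75th percentile of signal, on 1 or more. For EGR1 the nearest of 8693 others were the small GTPase RND3 (distance 0.74 log2 units, signals of 2121, 1048, 873 and 478 in the order of the groups), SLC4A7 (0.76) and DENND1A (0.80). For DUSP6 they were KISS1R (0.86), the Notch target HEY1 (0.94, with 7020, 9119, 517 and 174) and CCN2 (0.94). All of these had their lowest signal on the CL1-5 hairpin array, as their member did. The choice by distance over these same arrays largely sets this. The EGR1 neighbours were lower on the manipulated array of both lines, like EGR1. Those of DUSP6 were less alike within a line. KISS1R (1951 with vector, 2833 with PSAT1) and HEY1 were higher with PSAT1. DUSP6 (9979 and 8923) and CCN2 were lower. In CL1-5, CCN2 read 296 with the non-silencing and 253 with the PSAT1 hairpin, beside 326 and 117 for DUSP6. FOSL1 was under the floor on 1 array and was not given nearest genes. With 4 arrays these distances describe likeness on these arrays alone.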

How the data were processed

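Total RNA (6 ug per sample, per the labels) was labelled with biotin and hybridized to 4 one-colour Affymetrix arrays. The authors deposited 1 linear intensity per probe set and array, made with MAS5 per the submitters' processing notes; its version and scaling target are not given in the sources used here. Detection calls were not used. Of 54675 probe sets, 62 were controls, 41097 had 1 annotated gene symbol, updated through a RefSeq gene table, and 59 of Y-linked or X-inactivation genes were left out. Signals were floored at the pooled 50th percentile and log2 transformed. With 1 array per group, nothing was tested and no error could be given. The alternatives were 2 other scalings, floors at the 25th and 65th percentiles, the mean over probe sets, no multi-transcript probe sets and 1.5-fold. The ratio code was tested on simulated data. The members and lists were chosen with earlier results of these data known. Named genes were all members, the 2-fold members of each list (up to 4 per comparison) or else its largest ratio, PSAT1, and the 3 genes nearest to EGR1 and DUSP6. Python 3.11.15, numpy 2.4.6, pandas 2.3.3 and matplotlib 3.10.9 were used. Probe sets of genes not named in the annotation given were not analysed here.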

Additional observations from a re-analysis of the deposited data

How the results depend on the processing

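No paired analysis was possible because each group had 1 array, and no array could be left out. A value counted as moved when it shifted by more than the SD between probe sets of a gene, and a count when it changed by more than 1.5 times. The members that fell in the CL1-0 pair numbered 4 at 1.5-fold, 1 with the higher floor (65th percentile) and 1 once multi-transcript probe sets were left out, against 2. In the last case JUN had no measured value in that pair, and 6 members were measured. Those that fell in the CL1-5 pair numbered 1 without multi-transcript probe sets, against 2, since all EGR1 probe sets were then left out. Between the lines, 2 members in place of 4 were higher without multi-transcript probe sets, which removed IER3 and DUSP1, and the member median went from -0.20 to 0.41 under median centring. Of the 165 member ratios recomputed under an alternative, 143 stayed within that spread, 22 moved and 0 of those past 2-fold changed sign. Over all genes, 337 were higher and 133 lower in the CL1-0 pair as deposited, with 224 higher under quantile normalization, 166 and 79 with the mean over probe sets and 1214 and 535 at 1.5-fold. In the CL1-5 pair 51 and 54 became 214 and 276 at 1.5-fold, and 32 were lower with the mean over probe sets. Between the lines 720 higher and 3402 lower became 1307 and 1221 under quantile normalization, 1433 and 1193 under median centring, and 1169 and 6102 at 1.5-fold. Between the lines rises made up 17.5% of 2-fold differences as deposited, 51.7% under quantile normalization and 54.6% under median centring. Signals near the floor limit what these arrays measure. They are those of FOS, FOSB and FOSL1 in CL1-0, and of the dimmer EGR1 probe sets on the CL1-5 hairpin array.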
